A study of Mus musculus with 18 samples.

Results

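The genes described here are the Iroquois homeobox genes Irx1, Irx2, Irx3, Irx4 and Irx5 and the forkhead genes Foxc1 and Foxc2, measured by 3′ mRNA sequencing in AT3 cells, a mouse mammary carcinoma line. They were chosen by symbol, matched to the gene identifiers of the count table, and make up 7 of its 43629 genes. With the P300/CBP inhibitor A-241, Foxc1, Irx3 and Irx5 fell to between 26.4% and 33.4% of their level in vehicle within 3 h. None of the 5 members that could be tested was called higher in the 13 comparisons made, and Irx4 and Foxc2 had too few counts to test. Higher calls were uncommon over all genes too, so 0 of 5 is no trait of these members. In a fit without DMSO replicate 3 and IFNγ replicate 2, 1.61% of genes were called higher with A-241, 0.173% with A-485 and 1.62% with IFNγ, each against DMSO. The largest share among the 13 comparisons in that fit was 5.74%, for A-241 averaged over cells with and without IFNγ.

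Iroquois proteins are homeodomain transcription factors of the TALE class, best known for patterning the nervous system, heart, limb and lung. Mammals carry them in a pair of clusters, one with Irx1, Irx2 and Irx4 and the other with Irx3, Irx5 and Irx6. Foxc1 and Foxc2 are closely related forkhead transcription factors that act in the development of the eye, skeleton, blood vessels and lymphatic vessels. Foxc1 is widely used as a marker of basal-like breast cancer, and Foxc2 is known for its association with epithelial-mesenchymal transition. P300 and CBP are lysine acetyltransferases that acetylate histones, H3K27 among them, at enhancers and promoters.

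AT3 is a single established line grown in culture, so all libraries share its genotype. Every culture was first kept for 1 h with DMSO vehicle, 250 nM A-241 or 1000 nM A-485, which are chemically distinct inhibitors of the catalytic domain of P300 and CBP. Recombinant murine interferon gamma (IFNγ, 1 ng/mL) or its vehicle was then added for 2 h, giving 3 h in all. The 6 conditions were DMSO, A-241, A-485, IFNγ, A-241 with IFNγ and A-485 with IFNγ, with 3 libraries of each. The labels call the replicates biological in one place and technical in another, so the p-values measure the spread between these libraries, which may be technical.

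Libraries held 3417167 to 7856830 counts in genes. DMSO replicate 3 and IFNγ replicate 2 stood apart from the rest. Gm42418, a gene whose locus overlaps a ribosomal RNA repeat, took 20.13% and 23.05% of their counts, against 7.11% to 16.25% in the other 16 libraries. Over all tested genes their root mean square distance from the other libraries of their condition on the log2 scale was 1.10 and 1.13, and it was 0.339 to 0.767 elsewhere. Results that rest on these libraries are given with and without both of them, and the part of Gm42418 in them was not tested. The 6 epithelial markers were all present, with a summed level of 1022 to 1754 CPM, counts per 1000000 counts of the library. The 2 adipocyte markers never exceeded 3 counts, and the summed level was 0.83 to 4.07 CPM for fibroblast markers and 0.57 to 4.11 CPM for endothelial markers. The 6 mesenchymal markers had a summed level of 445 to 839 CPM, with Fn1 (median 439 CPM), Vim (113) and Cdh2 (36.0) the highest. Zeb2 (7.07) and Twist1 (5.13) were low, and Zeb1 had only 2 to 10 counts (median 0.65 CPM). Immune markers summed to 0.63 to 19.2 CPM.

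Irx1, Irx2, Irx3, Irx5 and Foxc1 passed the filter on low counts and were tested among 11964 genes. Irx1, on chromosome 13 at 71957921-71963723 of GRCm38 on the minus strand, had 44 to 426 counts per library. Irx2, at 72628820-72634198 of the same chromosome on the plus strand, had 22 to 79 counts. Irx3 lies on chromosome 8 at 91798525-91802067 on the minus strand and had 92 to 455 counts. Irx5, at 92357625-92376286 of chromosome 8 on the plus strand, had 31 to 182 counts. Foxc1, a gene of 1 exon on chromosome 13 at 31806633-31812476 on the plus strand, had 25 to 212 counts.

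Irx4 and Foxc2 could not be followed at this depth. Irx4, known for its role in the ventricles of the heart, lies on chromosome 13 at 73260479-73269608 on the plus strand. It had 1 count in DMSO replicate 1, DMSO replicate 3 and A-485 replicate 2 and 0 in the other 15 libraries. It was therefore called undetected, which here means that no library held more than 3 counts. A level of 3 counts equals 0.382 to 0.878 CPM in these libraries, so lower expression cannot be told from none. These limits cover counting error only.

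Foxc2, also a gene of 1 exon, lies on chromosome 8 at 121116171-121118895 on the plus strand. Its counts in replicates 1 to 3 were 2, 1 and 1 in DMSO and 2, 1 and 5 with A-241. A-485 libraries held 9, 6 and 3 counts. The counts were 2, 1 and 5 with IFNγ, 1, 3 and 1 with A-241 and IFNγ, and 3, 4 and 2 with A-485 and IFNγ. All 3 A-485 libraries were above all 3 DMSO libraries, as for 7.07% of the genes tested, but Foxc2 did not pass the filter. In a fit of all genes without that filter its log2 fold change in A-485 against DMSO was 1.92 ± 0.82 (SE), with an adjusted p of 0.541 by edgeR's quasi-likelihood test.

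Promoter sequence is shown for Irx3 and Foxc1, an Iroquois and a forkhead gene called lower with A-241, from RefSeq on GRCm38.p6, running from 250 bases before the annotated start to 50 after it. Sequences were matched for 4 of the 7 members, Irx2, Irx3, Irx4 and Foxc1. The strand is that of the gene, and capitals mark every match, on either strand, to the motifs searched: TTCNNNGAA (the GAS element of genes that respond to IFNγ), the ISRE core bound by IRF factors (GAAA, any 2 bases and GAAA), TGACGTCA (the CRE bound by CREB, a factor that recruits CBP), its part TGACG, the TATA box (TATAAA), the CCAAT box (these letters) and the GC box (GGGCGG). The part lies within the whole CRE, so matches to both can overlap. Positions are those of the first base of a match in the window, counted from 0 at the annotated start.
Irx3 promoter (chr8:91801605-91801904, minus strand): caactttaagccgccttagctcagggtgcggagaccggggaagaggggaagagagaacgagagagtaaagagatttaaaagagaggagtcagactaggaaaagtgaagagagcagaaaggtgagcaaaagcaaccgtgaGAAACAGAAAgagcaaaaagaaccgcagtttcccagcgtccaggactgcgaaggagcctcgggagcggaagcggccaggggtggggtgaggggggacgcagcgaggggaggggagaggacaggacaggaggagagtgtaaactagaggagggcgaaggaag
Foxc1 promoter (chr13:31806396-31806695, plus strand): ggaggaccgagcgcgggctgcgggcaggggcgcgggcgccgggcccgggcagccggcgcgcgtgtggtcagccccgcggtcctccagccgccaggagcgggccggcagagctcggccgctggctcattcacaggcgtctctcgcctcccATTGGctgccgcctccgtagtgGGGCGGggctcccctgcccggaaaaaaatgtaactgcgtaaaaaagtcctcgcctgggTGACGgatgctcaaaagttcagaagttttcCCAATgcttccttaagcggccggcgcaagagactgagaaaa

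The Irx3 window held 14 CpG dinucleotides and 1 match, to the ISRE core at position -111, a motif that 3.44% of 32851 promoters of the same length held. The Irx3 span given above begins at 91802067 on the minus strand, so this window lies wholly inside that span. The match is thus upstream of the RefSeq start only. The Foxc1 window held 32 CpG dinucleotides, against a median of 7 over all promoters. It matched the CCAAT box at -101 and 9, the GC box at -79 and the CRE part at -21, which 37.4%, 35.7% and 20.8% of promoters held. The Irx2 window had 25 CpG dinucleotides and matched the CRE part, the CCAAT box and the GC box, and the Irx4 window had 31 and matched the CRE part and the GC box. No window of the 4 matched the GAS element, the whole CRE or the TATA box, which 8.3%, 1.79% and 13.6% of promoters held. A match is a run of letters and not a measured binding site.

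Levels are given next as CPM scaled by the TMM method, in replicates 1, 2 and 3 of each condition. Overlaps of libraries are descriptions here, since their share over all genes was counted only for pairs of conditions that were tested. Foxc1 measured 36.4, 32.1 and 16.9 CPM in DMSO and 26.0, 11.3 and 21.1 CPM with IFNγ. It measured 8.39, 7.79 and 6.52 CPM with A-241 and 5.43, 7.48 and 8.03 CPM with A-241 and IFNγ. With A-485 it measured 12.7, 12.9 and 19.0 CPM, and with A-485 and IFNγ 14.1, 16.9 and 14.8 CPM. All 6 A-241 libraries were below all 12 others, a pattern whose share over all genes was not counted. In order of the mean, the conditions ran from DMSO (28.5 ± 10.3 CPM, SD, n = 3) through IFNγ, A-485 with IFNγ and A-485 to A-241 (7.57 ± 0.958) and A-241 with IFNγ (6.98 ± 1.37). Of these neighbours, only A-485 and A-241 had libraries that did not overlap.

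Irx3, which is expressed in the hypothalamus and in fat precursors and lies next to the obesity-associated gene Fto, measured 92.5, 71.7 and 52.1 CPM in DMSO. It measured 37.4, 36.3 and 47.3 CPM with IFNγ, 30.8, 32.4 and 42.2 CPM with A-485, and 24.3, 26.6 and 26.3 CPM with A-485 and IFNγ. Its means were lowest with A-241, whose libraries measured 27.3, 23.8 and 21.2 CPM without IFNγ and 23.4, 19.0 and 18.9 CPM with it. Every DMSO library was above every other library, and the share of all genes for which this held was not counted. From highest to lowest mean the order was DMSO (72.1 ± 20.2), IFNγ (40.3 ± 6.06), A-485 (35.1 ± 6.17), A-485 with IFNγ (25.7 ± 1.30), A-241 (24.1 ± 3.03) and A-241 with IFNγ (20.5 ± 2.58). The libraries of DMSO and IFNγ, and those of A-485 and A-485 with IFNγ, did not overlap, while the other neighbours did.

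Irx5, which acts with Irx3 in setting the gradient of repolarization across the heart wall, measured 25.9, 28.7 and 17.6 CPM in DMSO and 21.2, 16.3 and 18.8 CPM with IFNγ. In the inhibitor libraries it measured 6.92, 6.60 and 10.3 CPM with A-241 and 10.04, 9.71 and 8.58 CPM with A-485. With IFNγ added, these became 8.47, 7.32 and 6.38 CPM for A-241 and 7.45, 8.33 and 11.2 CPM for A-485. The 12 inhibitor libraries were thus all below the 6 libraries without inhibitor, again with no count over all genes. In order, the means were 24.0 ± 5.77 in DMSO, 18.8 ± 2.43 with IFNγ, 9.44 ± 0.766 with A-485, 8.99 ± 1.95 with A-485 and IFNγ, 7.94 ± 2.05 with A-241 and 7.39 ± 1.05 with A-241 and IFNγ. Only the step from IFNγ to A-485 was free of overlap.

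Irx1, an Iroquois gene of the developing lung, kidney and limb, measured 57.4, 65.2 and 19.996 CPM in DMSO and 52.2, 13.1 and 48.3 CPM with IFNγ. The low value of each trio was that of DMSO replicate 3 or IFNγ replicate 2. All 12 inhibitor libraries lay between 16.7 and 28.1 CPM, with means of 20.5 ± 2.32 with A-241, 23.4 ± 4.06 with A-485, 18.1 ± 2.09 with A-241 and IFNγ, and 22.9 ± 3.01 with A-485 and IFNγ. In order of the mean, DMSO (47.5 ± 24.2) was followed by IFNγ (37.9 ± 21.6), A-485, A-485 with IFNγ, A-241 and A-241 with IFNγ, and all neighbours overlapped. Without these libraries the means were 61.3 CPM in DMSO and 50.3 CPM with IFNγ, from 2 libraries each.

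Irx2, which is expressed in mammary epithelium, moved the other way in the same libraries. It measured 8.62, 7.72 and 24.8 CPM in DMSO and 9.69, 18.1 and 7.85 CPM with IFNγ, so DMSO replicate 3 and IFNγ replicate 2 were the highest of all 18. The 12 inhibitor libraries lay between 4.53 and 7.75 CPM. In order of the mean, DMSO (13.7 ± 9.62) was followed by IFNγ (11.9 ± 5.48), A-485 (6.57 ± 1.35), A-241 (5.94 ± 0.875), A-485 with IFNγ (5.74 ± 0.927) and A-241 with IFNγ (5.52 ± 0.878). Only IFNγ and A-485 did not overlap. Without these libraries the means were 8.17 CPM in DMSO and 8.77 CPM with IFNγ. Bulk RNA cannot tell fewer expressing cells from less RNA per cell, for this gene as for the others.

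**Figure D1:**
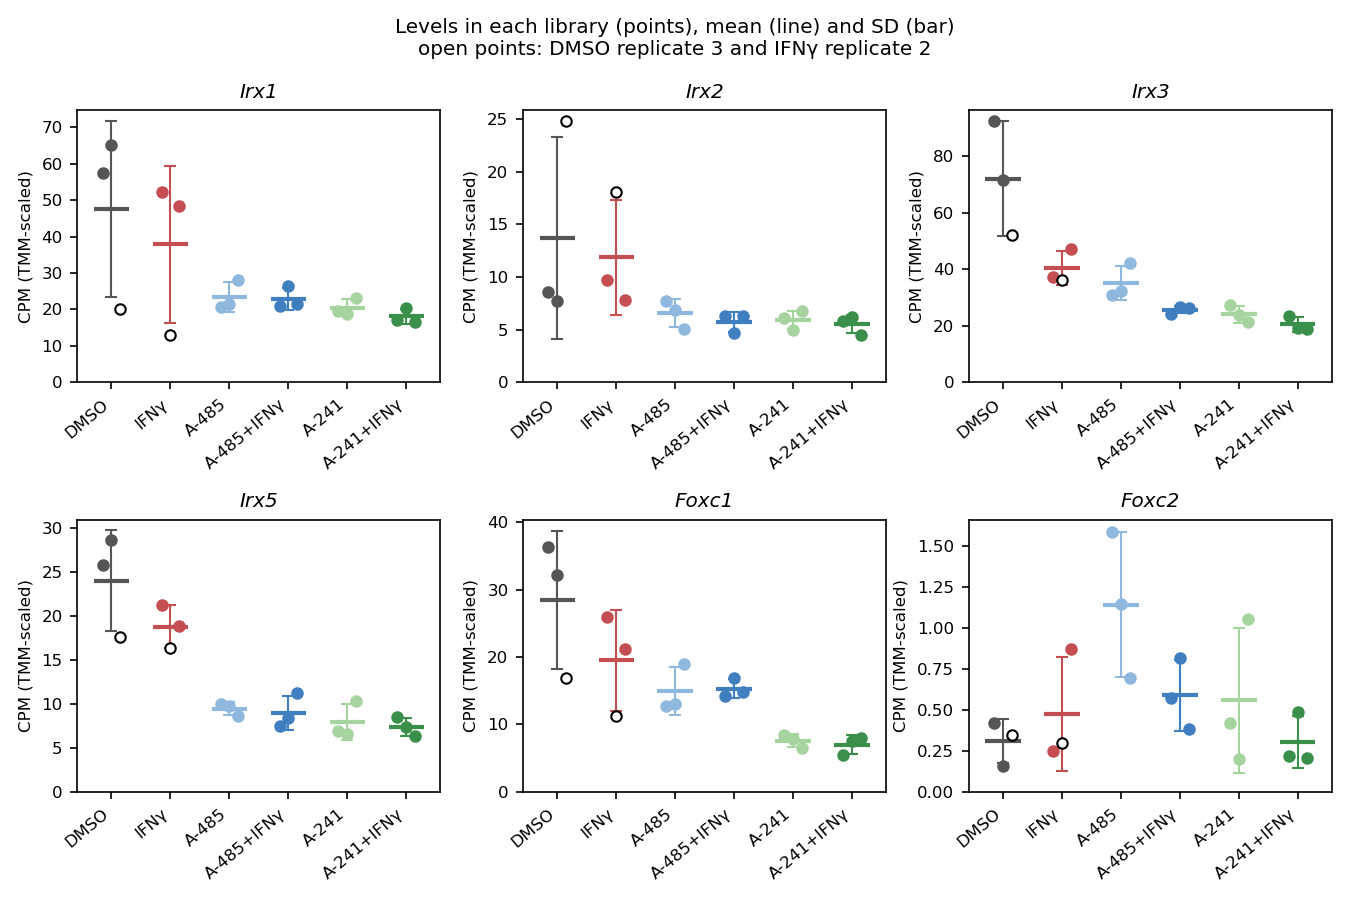
TMM-scaled CPM (vertical axis, linear and starting at 0) of the 6 members with counts in every library, by condition, with each library as a point, the mean as a line and the SD as a bar (n = 3). The open points, DMSO replicate 3 and IFNγ replicate 2, are the lowest of their condition for Irx1, Irx3, Irx5 and Foxc1 and the highest for Irx2, and Foxc2 stays below 2 CPM throughout.

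The first comparison asked how A-241 changed steady-state expression. The fold changes of all 5 tested members were below 0, and Foxc1, Irx5 and Irx3 passed the threshold of an adjusted p under 0.01 (edgeR's quasi-likelihood test with Benjamini-Hochberg adjustment, used throughout). Over all 11964 genes tested, 3.53% were called lower in this comparison. Foxc1 fell by 1.92 on the log2 scale (SE 0.31, adjusted p = 0.000850), to 26.4% of its DMSO level. Irx5 fell by 1.61 (SE 0.23, adjusted p = 0.000289), and Irx3 fell by 1.58 (SE 0.20, adjusted p = 0.000112). For these genes all A-241 libraries lay below all DMSO libraries, which held for 13.4% of all genes. The median over the 5 members was -1.58, against 0.01 over all genes tested, and 2.02% of genes had a lower fold change than Foxc1.

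Irx1 and Irx2 did not pass. Irx1 had a log2 fold change of -1.23 ± 0.41 (SE) and an adjusted p of 0.0775, and its libraries overlapped between A-241 and DMSO. Irx2 had -1.15 ± 0.40 and 0.0907. Without DMSO replicate 3 and IFNγ replicate 2 these genes parted. Irx1 then fell by 1.62 (adjusted p = 6.93e-07) and was called, while Irx2 had a log2 fold change of -0.49 (95% interval -1.0002 to 0.02) and an adjusted p of 0.194. The log2 fold changes of Foxc1, Irx5 and Irx3 were -2.21, -1.82 and -1.80 in that fit, in which 6.52% of 12135 genes were called lower.

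**Figure D2:**
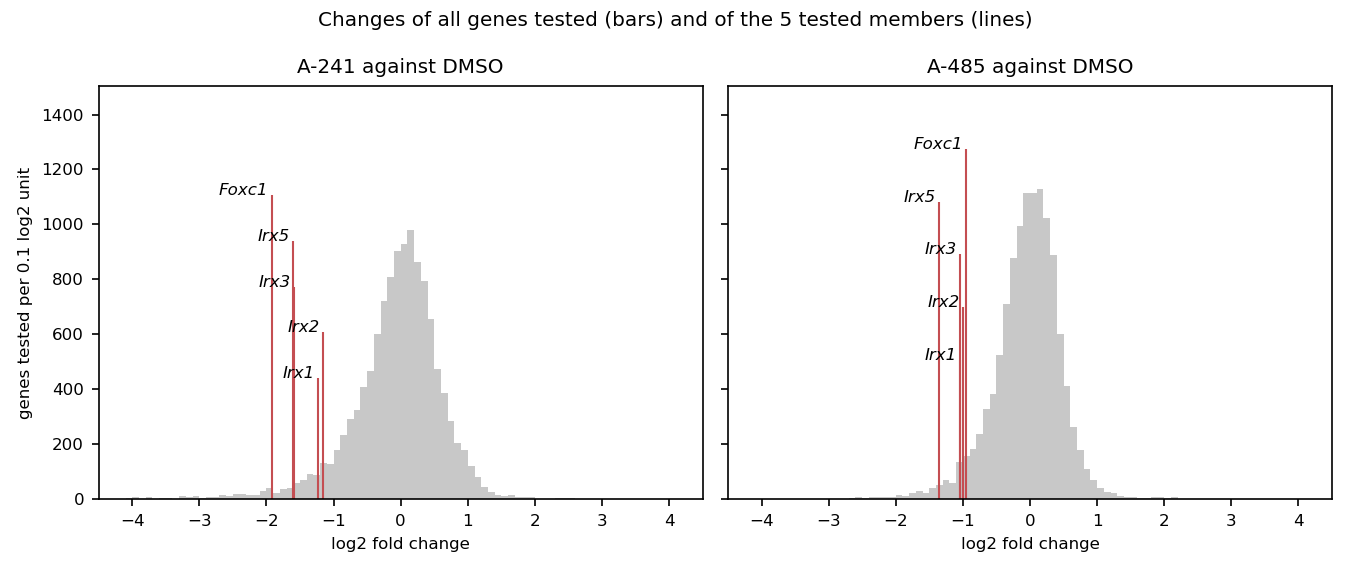
Number of genes (vertical axis) by log2 fold change (horizontal axis, bins of 0.1) in A-241 against DMSO and in A-485 against DMSO, with lines at the 5 tested members, whose heights serve only to separate the labels. All members lie left of the bulk of the 11964 genes, with medians of -1.58 and -1.04 against 0.01 and -0.00385 over all genes.

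In cells that also received IFNγ, the same 3 genes were called lower with A-241 than without it. Here 3.54% of all genes were called lower. Foxc1 fell by 1.49 on the log2 scale (SE 0.31, adjusted p = 0.00606), to 35.5% of its level with IFNγ alone. Irx5 fell by 1.35 (SE 0.23, adjusted p = 0.00129), and Irx3 fell by 0.98 (SE 0.20, adjusted p = 0.00598). Irx1 had -1.08 ± 0.41 and an adjusted p of 0.140, and Irx2 had -1.06 ± 0.40 and 0.134. The median of the members was -1.08, against -0.02 over all genes.

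Several of these calls changed when 1 library was left out. Leaving out IFNγ replicate 1, IFNγ replicate 3 or any A-241 with IFNγ library ended the calls of Foxc1 and Irx3, with adjusted p-values of up to 0.0439 and 0.0351. Irx5 lost its call only without replicate 3 of A-241 with IFNγ (adjusted p = 0.0111). Without IFNγ replicate 2 alone, Irx1 was called as well (adjusted p = 0.00766). With both libraries that stood apart removed, Irx1, Irx3, Irx5 and Foxc1 had log2 fold changes of -1.47, -1.05, -1.45 and -1.76, and all 4 were called, among 5.88% of genes lower. In A-241 against DMSO, by contrast, Irx3, Irx5 and Foxc1 were called in each of the 6 fits that left out 1 library.

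Averaged over cells with and without IFNγ, the log2 fold change with A-241 was -1.71 for Foxc1 (adjusted p = 4.31e-05), -1.48 for Irx5 (adjusted p = 9.04e-06) and -1.28 for Irx3 (adjusted p = 1.08e-05), and all 3 were called. These 3 calls stood in all 12 fits that left out 1 library, and 7.05% of all genes were called lower. Irx1 and Irx2 fell just short, with -1.15 and -1.11 and adjusted p-values of 0.0107 and 0.0117. Irx1 passed without DMSO replicate 3 or without IFNγ replicate 2, with a lowest adjusted p of 0.000277. Irx2 passed without DMSO replicate 1, DMSO replicate 2 or IFNγ replicate 3, with a lowest adjusted p of 0.00435.

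With A-485, Irx5 was the 1 member called against DMSO. It fell by 1.36 on the log2 scale (SE 0.23, adjusted p = 0.00417), to 39.1% of its DMSO level, and 0.619% of all genes were called lower. Irx3 had -1.04 ± 0.20 and an adjusted p of 0.0118, just outside the threshold. Its A-485 libraries all lay below its DMSO libraries, as for 8.84% of all genes. Irx1, Irx2 and Foxc1 had -1.04, -0.998 and -0.95 with adjusted p-values of 0.283, 0.294 and 0.136. The median was -1.04, against -0.00385 over all genes.

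The number of members called with A-485 changed with single libraries. Irx5 kept its call only when DMSO replicate 3 was the library left out, and its adjusted p reached 0.0298 without one of the other 5. Irx3 was called without DMSO replicate 3 (adjusted p = 0.00201). With both libraries that stood apart removed, 4 members were called, among 2.28% of genes: the log2 fold changes were -1.43 for Irx1, -1.26 for Irx3, -1.56 for Irx5 and -1.24 for Foxc1. Irx2 then had -0.33 (95% interval -0.83 to 0.17).

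In cells given IFNγ, no member was called in A-485 with IFNγ against IFNγ alone by edgeR, while 0.535% of all genes were called lower. At an unadjusted p under 0.05 the count was 3 of 5, against 14.7% of all genes, and DESeq2 called 1 and limma-voom 0. Irx5 came nearest, with -1.07 ± 0.23 and an adjusted p of 0.0233. Irx2, Irx1, Irx3 and Foxc1 had -1.01, -0.74, -0.65 and -0.37. Without both libraries that stood apart, Irx1 fell by 1.15 (adjusted p = 0.000169) and Irx5 fell by 1.17 (adjusted p = 0.00147), among 2.37% of genes lower. Averaged over both IFNγ states, A-485 gave called log2 fold changes of -1.21 for Irx5 (adjusted p = 0.000265) and -0.85 for Irx3 (adjusted p = 0.00176), with 2.39% of genes called lower. Irx1, Irx2 and Foxc1 had -0.89, -1.004 and -0.66 there, with adjusted p-values of 0.0844, 0.0465 and 0.0762. Irx1 was called in that average without IFNγ replicate 2 (adjusted p = 0.00453).

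**Figure D3:**
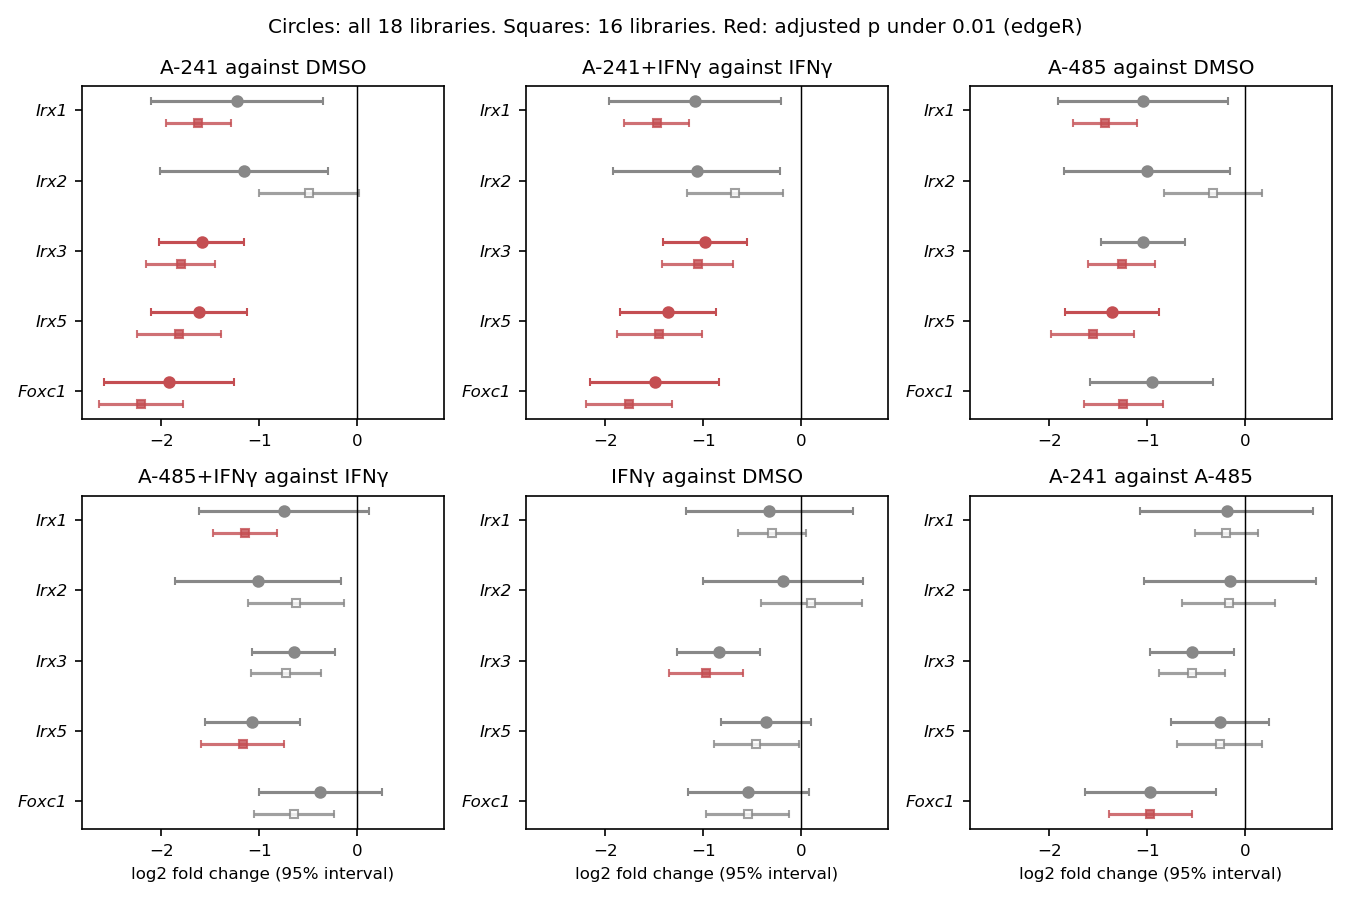
Log2 fold changes (horizontal axis) of the 5 tested members in 6 comparisons with 95% intervals, from all 18 libraries (circles) and from the 16 left without DMSO replicate 3 and IFNγ replicate 2 (squares), with red marking an adjusted p under 0.01. The intervals narrow in the smaller set and Irx1 becomes red in all 4 comparisons with an inhibitor against none, while Irx2 moves toward 0 in those 4.

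The inhibitors were also set against each other, with the limit that their doses differed (250 nM A-241 and 1000 nM A-485). No member was called by edgeR, DESeq2 or limma-voom in A-241 against A-485, where 0.351% of genes were called lower and 2 of the 5 members and 8.16% of all genes had an unadjusted p under 0.05. Foxc1 had a log2 difference of -0.97 (95% interval -1.64 to -0.30, adjusted p = 0.267), and Irx3 had -0.54 (-0.97 to -0.11, adjusted p = 0.404). The intervals for Irx1 (-1.07 to 0.69), Irx2 (-1.03 to 0.72) and Irx5 (-0.76 to 0.25) included 0. With IFNγ present no member was called by any of these tools either, 0.51% of genes were lower, and 1 member and 6.5% of all genes had an unadjusted p under 0.05. That member was Foxc1, with -1.12 (-1.79 to -0.45, adjusted p = 0.165).

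Foxc1 was the member for which the compounds were furthest apart. All 3 A-241 libraries lay below all 3 A-485 libraries, both without and with IFNγ, which also held for Irx3 and, in each state, for 11.3% and 11.8% of all genes. Without both libraries that stood apart, which belong to neither arm of these comparisons but enter the shared estimate of the spread, Foxc1 was called in both. Its log2 difference was then -0.97 (adjusted p = 0.00879) and -1.11 with IFNγ (adjusted p = 0.00292), among 1.48% and 1.24% of genes lower. Leaving out any single library of the groups compared gave no call.

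IFNγ by itself gave no call for any member against DMSO by edgeR, and 0.1% of all genes were called lower. DESeq2 called 1, limma-voom 0, and 1 of 5 had an unadjusted p under 0.05, against 8.49% of all genes. Irx3 had -0.84 ± 0.20 with an adjusted p of 0.0396, and its IFNγ libraries were all below its DMSO libraries, as for 3.69% of genes. Without DMSO replicate 3 its adjusted p was 0.00392, and without both libraries that stood apart it fell by 0.97 (adjusted p = 0.00241), among 0.412% of genes. Foxc1 had -0.54, Irx5 -0.36, Irx1 -0.32 and Irx2 -0.19, and the Irx2 value became 0.10 without those libraries. The median of the members was -0.36, against -0.00284 over all genes.

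When IFNγ was added to inhibited cells, no member passed the test by edgeR, DESeq2 or limma-voom. In A-241 with IFNγ against A-241 the members ranged from -0.24 to -0.10, with 0 of 5 members and 3.73% of all genes at an unadjusted p under 0.05 and 0.192% of all genes called in either direction. In A-485 with IFNγ against A-485 they ranged from -0.45 for Irx3 to 0.04 for Foxc1, with 1 of 5 members and 5.83% of genes at an unadjusted p under 0.05 and 0.802% of genes called. The test of whether the effect of an inhibitor differed between cells with and without IFNγ called 0 members for A-241 and 0 for A-485, with all 3 tools. It called 0.0334% and 0% of all genes by edgeR, with 3.36% and 4.17% of genes and 0 members at an unadjusted p under 0.05. The difference was largest for Irx3 with A-241, where the fall was smaller in the presence of IFNγ by 0.60 on the log2 scale (95% interval -0.00206 to 1.21, adjusted p = 1.00).

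Among themselves, Irx3, Irx5 and Foxc1 varied together over the 18 libraries. Pearson's r of log2 CPM was 0.86 for Irx3 with Irx5, 0.86 for Irx3 with Foxc1 and 0.78 for Irx5 with Foxc1. This was not confined to these genes, as Irx1 had an r of 0.82 with Foxc1 and 0.72 with Irx3. Irx1 and Irx2, which share a cluster, had an r of 0.0058 over all libraries and 0.69 over the 16 without those that stood apart. Irx1 and Irx5, in different clusters, went from 0.73 to 0.95. These correlations describe libraries that share their conditions and, within a library, their depth.

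By a rule that took the highest r over the 18 libraries among 7406 genes with enough counts, the genes most like Irx3 were Id2 (r = 0.96), Arl4c (0.94) and Trib2 (0.94). For Irx5 they were Klf13, Notch1 and Dact2 (0.92 each), and for Foxc1 the retinoic acid-degrading enzyme gene Cyp26b1 (0.94), Itpripl1 (0.94) and Lurap1l (0.93). All 9 were called lower with A-241, as were 3.53% of all genes, but the libraries in which the members fell with A-241 also entered the choice, so this is a description and no test. The genes most like Irx1 were Btg1 (0.94), Uhrf2 (0.91) and Plet1 (0.90), and those most like Irx2 were Snrpf (0.95), Eny2 (0.94) and Lrp6 (0.93), and none of these 6 was called with A-241. Without the libraries that stood apart the values for Irx2 dropped to 0.81, 0.67 and 0.83, while those for Irx3 remained between 0.94 and 0.96.

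Neighbouring genes were examined within 500 kb of a member, 25 of which were tested. Irx3os, an antisense gene, was the single gene whose exons shared bases with those of a member, 124 bases with Irx3. The reads were counted without regard to strand, so some counts of this pair cannot be assigned. Irx3os had 5 to 33 counts per library, and its log2 fold change was -1.503 with A-241 (adjusted p = 0.0144) and -1.37 with A-485 (adjusted p = 0.0604). Crnde, a noncoding gene 1.5 kb from Irx5 on the opposite strand, had -0.62 with A-241 (adjusted p = 0.401). Fto, 130.1 kb from Irx3, measured 32.4 ± 8.27 CPM in DMSO and 25.4 ± 1.64 CPM with A-241.

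Of the 25 neighbours, 1 was called lower with A-241, 0 with A-485 and 0 with IFNγ, against 3.53%, 0.619% and 0.1% of all genes. With IFNγ 1 was called higher, and in the fit without both libraries that stood apart 1.62% of all genes were. The median with A-241 was -0.18 against 0.01 over all genes. Most of the 25 lie near Irx4 or Foxc2, the members that could not be tested. The pooled counts and median therefore say little about genes beside the members that fell. The gene lower with A-241 was the forkhead gene Foxq1, 245.7 kb from Foxc1, which is below the count limit set for naming and was named after its values were seen. Foxq1 had 20, 29 and 11 counts in DMSO and 0, 1 and 2 with A-241, a fall of 4.20 on the log2 scale (SE 0.90, adjusted p = 0.00725). Its counts were 15, 0 and 9 with IFNγ and 0, 2 and 6 with A-485. It passed the filter on low counts only through its DMSO libraries, where it was high, so this fall is a description and no support. The gene higher with IFNγ was Irf8, an interferon-induced transcription factor gene 359.5 kb from Foxc2, with 0, 0 and 2 counts in DMSO and 230, 76 and 208 with IFNγ. It was also the 1 neighbour called lower in A-241 with IFNγ against IFNγ, where it fell by 2.43 (adjusted p = 0.00318) and 3.54% of all genes were called lower.

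Of the 12 other TALE homeobox genes reported here, 8 were tested. Their median was -0.06 with A-241 and -0.04 with A-485, against 0.01 and -0.00385 over all genes. With A-241 they ran from -1.18 ± 0.47 (SE) for the repressor gene Tgif2 (adjusted p = 0.137) to 0.99 ± 0.40 for the tendon factor gene Mkx (adjusted p = 0.145), and these values did not pass the threshold by edgeR. Irx6, of the same cluster as Irx3 and Irx5, had at most 6 counts and was not tested.

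Of 42 other forkhead genes 15 were tested, and 2 were called lower with A-241 (Foxp1 and Foxq1), 1 with A-485 and 0 with IFNγ, against 3.53%, 0.619% and 0.1% of all genes. Their median was -0.44 in the A-241 comparison and 0.00262 for A-485, against 0.01 and -0.00385 over all genes. Foxq1 passed the filter on low counts only through its DMSO libraries, where it was high, so its call is a description. Foxp1, a repressor with roles in lymphocytes, heart and lung, had 843, 966 and 459 counts in DMSO, 247, 249 and 266 with A-241, whereas the A-485 libraries had 469, 355 and 361. It fell by 1.63 with A-241 (SE 0.15, adjusted p = 3.70e-06) and by 1.06 with A-485 (SE 0.15, adjusted p = 0.00100). In A-241 with IFNγ against IFNγ its log2 fold change was -1.16 (adjusted p = 8.87e-05). Against DMSO, no reported gene of either family was called higher with A-241 or A-485. In the fit without both libraries that stood apart, 1.61% and 0.173% of all genes were called higher in these comparisons. In the average over both IFNγ states, Pbx3 was called higher with A-241, by 0.87 on the log2 scale (adjusted p = 0.00632), and the forkhead gene Foxo6 was called lower, with -2.38 (adjusted p = 0.000508). Both were named after their values were seen. Foxo6 averaged 13 counts in DMSO and 14.3 with IFNγ, against 7.1 over all libraries. It passed the filter on low counts through libraries without inhibitor, where it was high, so its call is a description and no support. Without both libraries that stood apart, Foxq1 was called lower with A-485 too, with -3.02 (adjusted p = 0.00652). The limit given above for Foxq1 holds for that call as well.

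**Figure D4:**
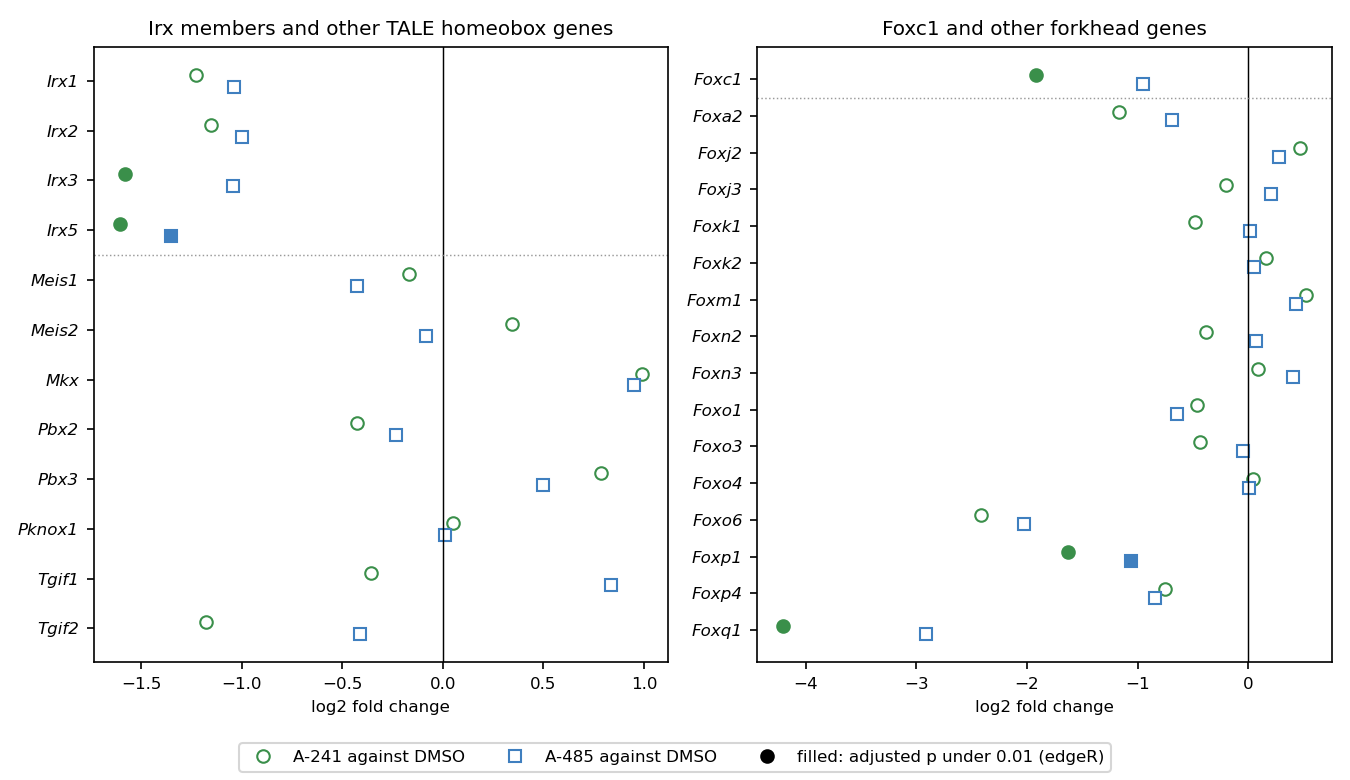
Log2 fold changes (horizontal axis) with A-241 (circles) and A-485 (squares) against DMSO for the tested Iroquois genes and 8 other TALE homeobox genes (left) and for Foxc1 and 15 other forkhead genes (right), with filled symbols for an adjusted p under 0.01. The Iroquois genes lie between -1.61 and -0.998 in these plots, while most other family members lie nearer to 0, apart from Foxp1 and Foxq1, which were called, and from Tgif2, Foxo6 and Foxa2, which were not.

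A list of 12 genes described elsewhere as regulated by Foxc or Irx factors held 4 that could be tested. The list does not record whether the factors raise or lower these genes. Falls here therefore cannot be read as following the members, and such a link was not tested. With A-241, 3 were called lower (Cxcl12, Itgb3 and Gja1) and 0 higher, with a median of -1.86, against 3.53% called lower and a median of 0.01 over all genes. With A-485 1 was called lower (Itgb3), against 0.619% of all genes. With IFNγ alone 0 were called, and 0.1% of all genes were called lower. In cells given IFNγ, 1 was called lower with A-241 and 1 with A-485, against 3.54% and 0.535% of all genes. It was Gja1 in both cases. Gja1, which encodes the gap junction protein connexin 43, had 524, 886 and 439 counts in DMSO and 226, 238 and 236 with A-241, a fall of 1.47 on the log2 scale (SE 0.17, adjusted p = 2.89e-05). Itgb3, an integrin subunit gene reported as a Foxc2 target in endothelium, fell by 1.68 with A-241 (adjusted p = 0.00234) while its change with A-485 was -1.67 (adjusted p = 0.00941). Foxc2 itself had too few counts to test. In A-241 with IFNγ against IFNγ, Itgb3 had -0.41 (adjusted p = 0.494) and Cxcl12 had -1.22 (adjusted p = 0.116), and neither was called. Cxcl12, a chemokine gene, had 21, 42 and 14 counts in DMSO and 1, 4 and 6 with A-241 and fell by 2.78 (adjusted p = 0.00182), at a depth below the naming limit. With both libraries that stood apart removed, the log2 fold changes with A-241 were -2.88 for Cxcl12, -1.56 for Itgb3 and -1.41 for Gja1. With A-485, Itgb3 had -1.54 (adjusted p = 0.00235) and Cxcl12 was then called as well, at -2.17 (adjusted p = 0.00635).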

How the data were processed

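RNA of AT3 cells was made into QuantSeq 3′ mRNA libraries and read as 75-base single-end reads. The authors trimmed reads with cutadapt 1.7, aligned them to mm10 with HISAT2 2.1.0 and counted them per gene with featureCounts over exons, with no strand setting and with reads over several genes counted for each, and deposited raw counts for 43629 genes. Samples were grouped by their labels. Genes were named from the GENCODE annotation of GRCm38 (42548 rows matched), and rows without a match held 0.403% of counts.

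Counts passing edgeR's filterByExpr were scaled by TMM and fitted with edgeR 4.0.16 (quasi-likelihood, 1 mean per condition, all 18 libraries) under R 4.3.3, and p-values were adjusted over all 11964 genes (threshold 0.01). Log2 CPM for correlations used a prior count of 2, and plotted CPM used none. The scripts were tested on simulated data. Alternatives were DESeq2 1.42.0, limma-voom (limma 3.58.1), other scalings and filters, surrogate variables (sva 3.50.0), a replicate block and left-out libraries. The members and gene lists were chosen with earlier results of these data known, and 1 gene of the TALE list is not reported here. Of each list up to 3 called genes were named, provided that the groups did not overlap and the higher one averaged 50 counts or more. The genes most alike were the 3 with the highest r per member among genes with at least 50 counts. Intervals use a confidence level of 95%. Figures were drawn with matplotlib 3.10.9.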

Additional observations from a re-analysis of the deposited data

How the results depend on the processing

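In the comparisons of an inhibitor with none, all 600 fold changes of the 5 members under the alternatives were below 0, so the direction held while the number called moved. For A-485 against DMSO the number of members called, 1 in the report, was 0 with scaling by total counts, with the replicate block and with only the groups compared in the fit, 2 with upper-quartile scaling, RLE scaling, DESeq2 or a threshold of 0.05, and 4 with 2 surrogate variables or without DMSO replicate 3 and IFNγ replicate 2. With only the groups compared, 0 members were called in A-241 against DMSO and in A-241 with IFNγ against IFNγ (each 3 in the report). The latter count was also 0 with total counts, 1 with the replicate block and 2 with limma-voom or no filter. For A-485 with IFNγ against IFNγ (0) it was 1 with DESeq2 or a threshold of 0.05, 3 with surrogate variables and 2 without both libraries. For IFNγ against DMSO (0) it was 1 under each of those 4 alternatives. In the direct comparison of the inhibitors (0) it was 2 with surrogate variables and 1 without both libraries, and with IFNγ present 1 with surrogate variables, with only the groups compared and without both libraries. For A-485 with IFNγ against A-485 (0) it was 1 with surrogate variables. Averaged over IFNγ states, A-241 called 5 (3 in the report) with no filter, DESeq2 or a threshold of 0.05, and A-485 (2) called 1 with total counts or only the groups compared and 4 with surrogate variables or without both libraries. The share of all genes called under these settings is given only for the fit without both libraries, in the sections above. The other counts therefore cannot be read as being about the members in particular. The cause of these shifts was not tested.

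Leaving out 1 library gave 3 members called in A-241 against DMSO, 0 to 4 in A-241 with IFNγ against IFNγ, 0 to 2 in A-485 against DMSO, 0 to 1 in IFNγ against DMSO, 3 to 4 and 2 to 3 in the averages of A-241 and A-485, and 0 in the other comparisons. It turned the sign of some values near 0: in IFNγ against DMSO Irx1 ranged from -0.66 to 0.059 and Irx2 from -0.56 to 0.52. In A-241 with IFNγ against A-241 the ranges were -0.21 to 0.032 for Foxc1, -0.21 to 0.059 for Irx2 and -0.22 to 0.13 for Irx5. In A-485 with IFNγ against A-485 they were -0.063 to 0.25 for Foxc1, -0.14 to 0.12 for Irx1 and -0.27 to 0.045 for Irx5, and in A-241 with IFNγ against A-485 with IFNγ -0.17 to 0.083 for Irx2. For the difference of the inhibitor effect between IFNγ states they were -0.21 to 0.48 for Irx1 and -0.61 to 0.48 for Irx2 with A-241, and -0.078 to 0.63 and -0.71 to 0.36 with A-485. Other sign changes were Irx2 with IFNγ at 0.10 without both libraries, Foxc1 in A-485 with IFNγ against A-485 at -0.049 with surrogate variables, and the Irx2 difference at -0.058 (limma-voom) and -0.18 (without both libraries) for A-241 and at 0.0039 (total counts), 0.00352 (upper quartile) and 0.035 (surrogate variables) for A-485. Same-numbered replicates had correlations of their deviations from -0.80 to 0.48, and 5 of 18 libraries correlated best with their own number, so the number is not taken as a pairing.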
